A study of Mus musculus with 24 samples.

Results

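mmu-miR-143 and mmu-miR-145 are 2 of the 611 mouse miRNAs on an Agilent 1-colour miRNA array that was hybridised with RNA from mouse lung. They were taken from the scanner files by their array names, without star forms. Of the 24 arrays, 6 belonged to each of 4 groups. M c-Raf and F c-Raf are males and females of the SP-C/c-raf line, in which the promoter of surfactant protein C drives an active c-Raf kinase in lung epithelium, and M WT and F WT are wild type males and females. All animals were 4 to 6 months old. The transgene acts in epithelial cells, so it does not itself target the cells for which this pair is known. The paper's methods describe cells microdissected out of frozen sections, but its array protocol speaks of total RNA taken from each lung. Which of these was hybridised is thus not clear. The labels name lung adenocarcinoma as the tissue of the wild type arrays too. They do not say which structures, such as airways or vessels, the RNA came from.

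miR-143 and miR-145 are cut from primary transcripts of a shared locus. In the RefSeq mouse annotation their genes, Mir143 and Mir145a, lie on chromosome 18 within the span of the non-coding gene Carmn. The pair is best known from smooth muscle of vessels and airways, where serum response factor and its partner myocardin switch the locus on and where the miRNAs favour the contractile state by repressing factors such as Klf4 and Elk1. Fibroblasts also make them, while most epithelial cells make little. In bulk lung RNA the pair is therefore often read as a sign of smooth muscle and other mesenchymal cells. In such RNA, fewer cells of a type and less of a miRNA per cell cannot be told apart.

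Each miRNA had 20 spots on an array, 10 for each of 2 probes. The processed intensity of a spot is its brightness in scanner units after the extraction software subtracted the background. It can fall below 0. Detection is the flag that the software gives a miRNA on an array. The brightness of an array is the 75th percentile of spot intensities, taken over 27 mouse miRNAs that every one of the 24 arrays detected. It ran from 34.9 to 1212 units with a median of 215, and between 38 and 179 of the 611 mouse miRNAs were detected per array. No array detected 407 of them. The replicate number of an array was its slide, the 6 slides were scanned in 4 scans, and each group always sat at the same position of a slide, so position and group cannot be told apart.

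Both members were at or near background on most arrays. Each was detected on 3 of the 24 arrays, and these were the same 3, namely M c-Raf replicates 4 and 5 and F WT replicate 4. They were also the 3 brightest arrays, at 1212, 792 and 550 units, while the fourth brightest reached 529 units. Thus both miRNAs were detected in 2 of 6 M c-Raf lungs, in 1 of 6 F WT lungs and in none of the 12 M WT and F c-Raf lungs. Fisher's exact test found no difference in detection in males (p = 0.455), in females (p = 1) or over both sexes (p = 1), and the adjusted p was 1 in each of 5 comparisons. With these counts no comparison could have passed, since even 2 of 6 against 0 of 6 gives p = 0.455 in the exact test. No spot of either member was saturated.

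The intensities show what lay behind these flags. In M c-Raf the median over the 20 spots of miR-143 ran from -0.714 to 18.4 units with a median of 3.52. The 2 detected arrays held 18.4 and 6.28 units, and the next, M c-Raf replicate 3, held 4.92 units without being detected. In F c-Raf miR-143 ran from -0.917 to 3.27 units (median 1.09), and in M WT from -1.64 to 1.97 units (median 0.923). In F WT it ran from -0.773 to 8.17 units (median 0.637). The highest of these values was the detected array, and the other F WT arrays lay at or below 1.59 units. The groups therefore overlapped over most of their range.

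miR-145, the member that is best known for holding smooth muscle cells in the contractile state, had the same outline. In M c-Raf it ran from -5.91 to 26.4 units with a median of 0.546, and the 2 detected arrays held 26.4 and 11.2 units. In F c-Raf it ran from -4.75 to 0.989 units (median -0.436), and in M WT from -5.80 to 1.39 units (median -0.841). In F WT it ran from -6.13 to 7.81 units (median 0.585). No array without detection was above 2.20 units for miR-145 or above 4.92 units for miR-143.

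**Figure D1:**
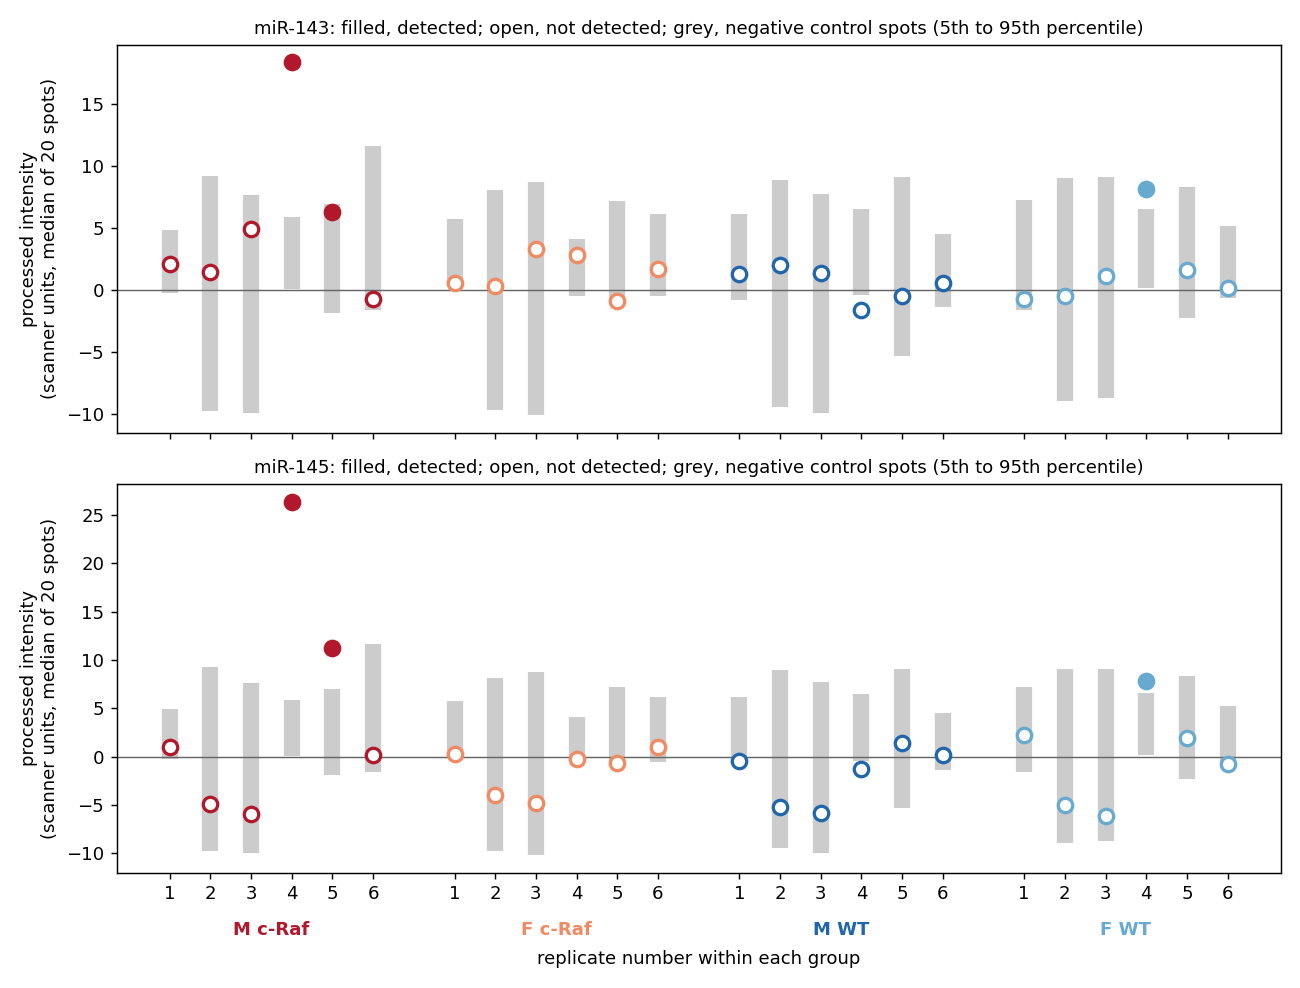
Processed intensity of miR-143 (top) and miR-145 (bottom) in scanner units on each of the 24 arrays, by group and replicate. Each point is the median of 20 spots, filled where the miRNA was detected, and grey bars span the 5th to 95th percentile of the array's 434 negative control spots. The filled points are the same 3 arrays in both panels, M c-Raf replicates 4 and 5 and F WT replicate 4, and most open points lie inside the grey bars.

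The 434 negative control spots of each array give the background measured in the same way. On M c-Raf replicate 4 their 95th percentile was 5.88 units, and all 20 spots of miR-143 and all 20 of miR-145 lay above it. On F WT replicate 4 it was 6.53 units, and 16 spots of miR-143 and 11 of miR-145 lay above it. On M c-Raf replicate 5 it was 6.98 units, and 9 spots of miR-143 and 16 of miR-145 lay above it. On the other 21 arrays only 2 of 420 spots of each member were flagged as well above background. Of those of miR-143, both were on F WT replicate 5, where 1 spot read 238 units while the median of the 20 was 1.59.

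The different probes of each member rose together on the 3 arrays. For miR-143 the probe A_54_P2404 held 14.4, 4.59 and 7.05 units on replicates 4 and 5 of M c-Raf and on F WT replicate 4, and A_54_P2405 held 23.0, 8.32 and 8.86 units. For miR-145 the probe A_54_P2314 held 16.2, 7.61 and 4.41 units on these arrays, and A_54_P2315 held 39.5, 14.9 and 11.3 units. On the 21 other arrays the highest medians of the 4 probes, in the same order, were 3.77, 6.63, 2.24 and 5.23 units. Each probe was thus higher on all 3 arrays than on any of the 21. The detection flag that set these 3 arrays apart rests on the same spots, so this is not separate evidence of signal. The probes did differ in how they were flagged, since on F WT replicate 4 all 10 spots of A_54_P2315 but 1 of 10 of A_54_P2314 were well above background.

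**Figure D2:**
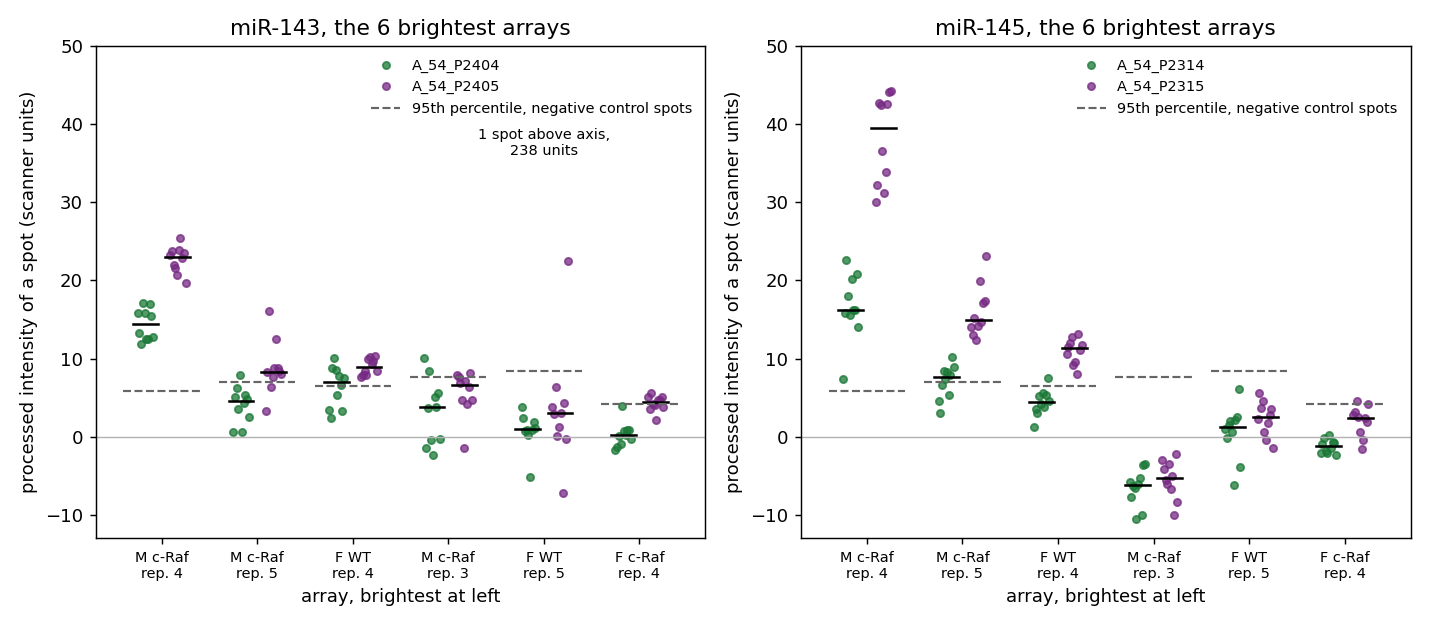
Processed intensity in scanner units of every spot of miR-143 (left) and miR-145 (right) on the 6 brightest arrays, with the 2 probes of each in different colours, their medians as black bars and the 95th percentile of the negative control spots dashed. On M c-Raf replicate 4 nearly all spots of both probes stand clear of the dashed line, and 1 spot of miR-143 on F WT replicate 5, at 238 units, lies above the axis.

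Brightness moved with these values. Over the 24 arrays the intensity of miR-143 correlated with brightness (Pearson r = 0.94, permutation p = 1e-05, the smallest that 100000 resamples can give; Spearman rho = 0.77, permutation p = 3e-05). When the 2 arrays with the most extreme brightness were left out, r was 0.83. Without the 3 arrays with detection, r was still 0.78 over 21 arrays (adjusted permutation p = 0.00028). For miR-145 r was 0.80 over all arrays (adjusted permutation p = 0.00179) but rho was 0.35 (permutation p = 0.0931), and r fell to 0.19 when the 2 extreme arrays were left out and to -0.14 without the 3 arrays with detection. In scanner units the relation of miR-145 to brightness thus rested on those arrays, whereas that of miR-143 did not. On the log2 scale described below, r with brightness was 0.61 for miR-145 (adjusted permutation p = 0.003; 0.52 without the 2 extreme arrays) and 0.41 for miR-143 (adjusted permutation p = 0.0678).

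Scan moved with miR-145 as well. On the 8 arrays of scan 4 (slides 2 and 3) miR-145 lay between -6.13 and -3.93 units, below all of its values on the other 16 arrays, in all 4 groups. The negative control spots of those 8 arrays spread widest, with 5th percentiles between -10.2 and -8.72 units, against -5.32 to 0.21 units elsewhere. miR-143 ran from -0.498 to 4.92 units on the same 8 arrays. The part of brightness and scan in the detection of the pair was not tested.

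**Figure D3:**
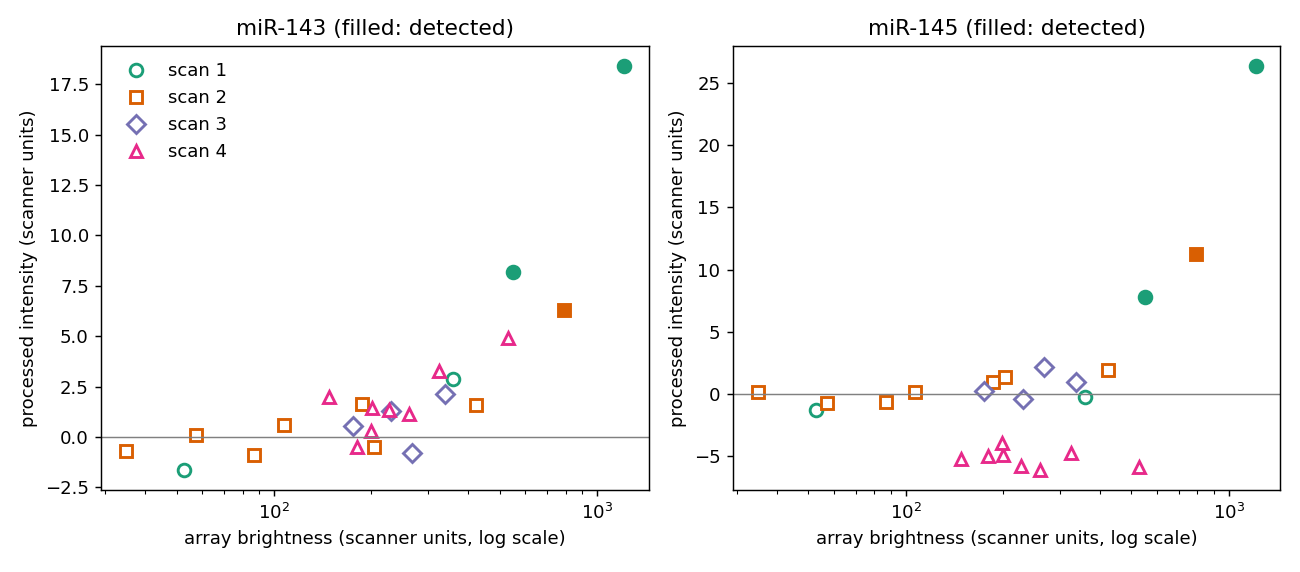
Processed intensity (scanner units) of miR-143 (left) and miR-145 (right) against array brightness (scanner units, log scale), 1 point per array, with marker and colour by scan and filled points where the miRNA was detected. The 3 filled points are the brightest arrays in both panels, and the 8 arrays of scan 4 lie between -6.13 and -3.93 units for miR-145.

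To compare arrays of different brightness, the spot median was also given as a percent of the array's brightness, with values below 0 kept. On replicates 4 and 5 of M c-Raf and on F WT replicate 4 miR-143 held 1.52, 0.793 and 1.48% of the brightness, and miR-145 held 2.18, 1.42 and 1.42%. The dimmest single spot that was well above background gives a limit for each array. On the 21 arrays without detection this limit ran from 2.09 to 34.5% of the brightness with a median of 8.86%, and on 19 of them it was above the highest share reached by either member. This is a limit for single spots and not for the flag, which rests on all 20: on M c-Raf replicate 5 it was 1.6%, and both members were detected there at lower shares.

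Among males, the mean share of miR-143 was 0.422% ± 1.25 (SD, n = 6) for M c-Raf against -0.0572% ± 1.58 (SD, n = 6) for M WT. The difference of 0.479 percentage points was smaller than the spread between arrays (exact two-sided permutation test, p = 0.528, adjusted over 10 tests p = 0.972). The mean share of miR-145 was 0.120% ± 1.68 (SD, n = 6) for M c-Raf against -1.31% ± 1.74 (SD, n = 6) for M WT. This difference of 1.43 percentage points did not pass either (exact permutation p = 0.180, adjusted p = 0.972). Each slide held 1 array of every group, so the groups were also compared within slides. The share of miR-145 was higher in M c-Raf than in M WT on 6 of 6 slides (exact sign-change permutation p = 0.0312, the smallest that 6 slides allow, adjusted over 10 tests p = 0.312), and in scanner units on 4 of 6 (exact p = 0.125, adjusted p = 0.586). An intensity below 0 gives a less negative share on a brighter array. On slide 3 miR-145 was lower in M c-Raf than in M WT in scanner units (-5.91 against -5.80). Its share there was still higher (-1.12 against -2.55%), with a brightness of 529 against 227 units. For miR-143 the share was higher on 4 of 6 slides (exact p = 0.656). Within scans 1 to 4 the male difference of miR-145 was 4.60, 0.491, 0.455 and 1.26 percentage points, with 1 or 2 arrays on a side. In scanner units it was 27.6, 4.91, 1.35 and 0.107. That of miR-143 was 4.63, -0.772, 0.0796 and -0.147 percentage points. In scanner units the male differences were 4.90 for miR-143 (exact permutation p = 0.0584, adjusted p = 0.584) and 6.51 for miR-145 (exact permutation p = 0.262, adjusted p = 0.628).

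In females both members had nearly equal mean shares. The share of miR-143 was 0.346% ± 0.766 (SD, n = 6) for F c-Raf against 0.324% ± 0.650 (SD, n = 6) for F WT (exact permutation p = 0.972). The share of miR-145 was -0.593% ± 0.974 (SD, n = 6) for F c-Raf against -0.618% ± 1.75 (SD, n = 6) for F WT (exact permutation p = 0.972). In scanner units the female differences had the opposite sign to those of the shares. They were -0.349 for miR-143 (exact permutation p = 0.883, adjusted p = 0.883) and -1.40 for miR-145 (exact permutation p = 0.554, adjusted p = 0.671). Over both sexes the differences of c-Raf from WT were 0.250 percentage points for miR-143 (exact permutation p = 0.588, adjusted p = 0.972) and 0.725 for miR-145 (exact permutation p = 0.269, adjusted p = 0.972). Shares near or below 0 are background, and a p that misses the threshold does not show that the groups were alike.

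**Figure D4:**
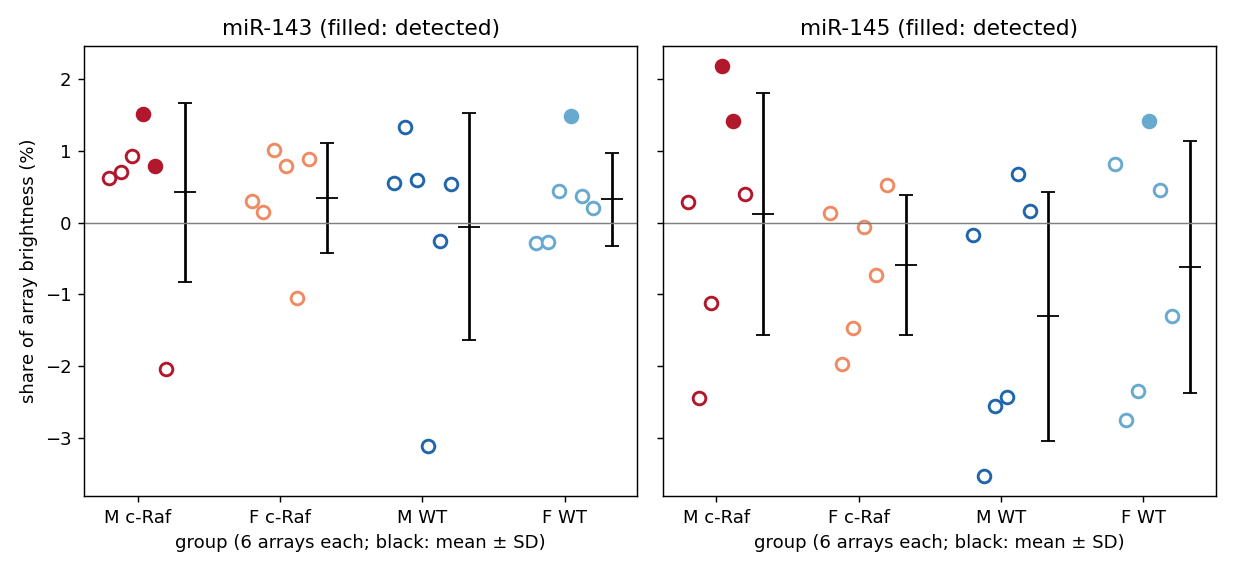
Share of array brightness (%) held by miR-143 (left) and miR-145 (right), 1 point per array in the 4 groups of 6, filled where detected, with the mean ± SD of the group in black. The groups overlap in both panels, and the 3 filled points lie between 0.793 and 2.18%.

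The sexes were compared in the same way. In WT lungs the male minus female difference was -0.381 percentage points for miR-143 (exact permutation p = 0.755) and -0.689 for miR-145 (exact permutation p = 0.5). In c-Raf lungs it was 0.0759 for miR-143 (exact permutation p = 0.877) and 0.714 for miR-145 (exact permutation p = 0.381). The adjusted p was 0.972 in all 4 tests.

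A test by limma over many miRNAs was run on log2 values, namely log2 of the intensity over the array's brightness with everything under 0.01 set to 0.01. It took in miRNAs detected on at least 6 arrays. Neither member passed this filter, so the pair had no place among the 120 miRNAs tested. When all 611 mouse miRNAs were fitted with no filter, neither member passed in any of the 6 comparisons. In males the log2 difference of c-Raf from WT was 0.03 (SE 0.11, adjusted p = 1 by limma) for miR-143 and 0.26 (SE 0.15, adjusted p = 0.524 by limma) for miR-145. In females it was -0.07 (SE 0.11) and -0.08 (SE 0.15), and over both sexes -0.02 (SE 0.08) and 0.09 (SE 0.10). The c-Raf effect in males minus that in females was 0.11 (SE 0.15) for miR-143 and 0.34 (SE 0.21) for miR-145. The male minus female difference was -0.03 and -0.07 in WT lungs and 0.08 and 0.27 in c-Raf lungs, in the same order. The adjusted p by limma was at least 0.801 for all of these other differences.

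These log2 differences are small because most values lie on the limit of 0.01, that is -6.64 on the log2 scale. Their SEs are held down in the same way, so a small SE here does not mean that a lack of change was measured precisely. miR-143 was on that limit on 4 of 6 F c-Raf arrays and on 5 of 6 arrays of each other group. miR-145 was on it on all 6 F c-Raf arrays, on 4 of 6 M c-Raf arrays and on 5 of 6 arrays of each WT group. Where 1 group had no array with detection, a lower bound of the fold was sought against the dimmest measurable signal, and it was under 1 for both members, M c-Raf over M WT as well as F WT over F c-Raf, so no fold is given. In the unfiltered fit the contrast of c-Raf with WT called 0.164% of the 611 miRNAs in males, 0.327% in females and 1.15% with the sexes joined. The contrast of the sexes called 0.00% in WT, where 13 had an unadjusted p under 0.05, and 0.164% in c-Raf. For the c-Raf effect in males minus that in females it was 0.00%, where 7 had an unadjusted p under 0.05. These shares are diluted, since in each contrast at least 133 of the 611 gave a difference of 0 with no SE and could not be called. Among the 120 miRNAs past the filter, c-Raf against WT called 2.50% in males, 5.00% in females and 18.3% with the sexes joined. In all 6 contrasts limma called 0 of the 2 members, and 0 of them had an unadjusted p under 0.05. The methods' t-test, run on the scaled values before log2 for the 4 contrasts of single groups, gave them adjusted p-values of 0.606 to 0.873. Those values carried the limit of 0.01 of the brightness and mostly lay on it, whereas the paper set only negative signals to 0.01. It is thus the paper's test on unlike values.

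Since the pair is made from one locus, its movement within an array was examined as log2 miR-143 minus log2 miR-145, in which the brightness cancels only where both are above the limit of 0.01. That was so on 2 arrays, M c-Raf replicate 4 and F WT replicate 4. On 5 arrays 1 member lay on the limit, so there the difference is that of the other from 1% of the brightness, and it still moves with brightness. This difference was 0, with both on the limit, on 5 of 6 F WT arrays and on 4 of 6 arrays of each other group. Its mean was 0.06 ± 0.18 for M WT, 0.011 ± 0.026 for F WT, -0.17 ± 0.26 for M c-Raf and 0.020 ± 0.031 for F c-Raf (SD, n = 6 each). It changed by -0.23 between M WT and M c-Raf (exact permutation p = 0.273, adjusted over 5 tests p = 0.455) and by 0.0094 between F WT and F c-Raf (exact permutation p = 0.727). Over both sexes the change was -0.11 (exact permutation p = 0.238), and the sexes differed by 0.05 in WT (exact permutation p = 1) and by -0.19 in c-Raf (exact permutation p = 0.152). With so many differences at 0, no comparison of 2 single groups could have passed, however the other values were placed. Those p-values therefore do not show that the pair moved together.

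Over the 24 arrays the log2 values of the pair correlated (r = 0.74, permutation p = 0.00422; rho = 0.41, permutation p = 0.0234). Adjusted over 14 relations the permutation p was 0.00738 for r and 0.0656 for rho. When the 2 arrays with the most extreme miR-143 were left out, r was -0.07, so the relation rested on those arrays. On deviations from the group means r was 0.77 (adjusted permutation p = 0.00175) and fell to 0.25 without the 2 farthest arrays. In scanner units r was 0.80 (adjusted permutation p = 0.003) and rho 0.18, with r = 0.20 without the 2 farthest arrays and -0.37 over the 21 arrays without detection (adjusted permutation p = 0.123). Within scan 2 r was 0.94 in scanner units over 8 arrays (exact permutation p = 0.0117) and 0.54 without the 2 farthest, and within scan 4 it was -0.38 over 8 arrays (exact permutation p = 0.364). On the log2 scale r within scan 2 was -0.17 (exact permutation p = 0.875), and within scan 4 it has no value since miR-145 was constant there. The other scans held 4 arrays each. The joint rise of the pair was thus seen on the 3 brightest arrays and not among the rest. It was weak on M c-Raf replicate 5, where 1 of 20 spots of miR-143 was well above background and its log2 value lay on the limit.

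Other miRNAs had the same detection pattern. Of 19 mouse miRNAs detected on exactly 3 arrays, 8 were detected on these same 3, the pair included. The 6 others were mmu-miR-151-3p, mmu-miR-185, mmu-miR-199a-5p, mmu-miR-29b*, mmu-miR-30e and mmu-miR-342-5p. Among these, miR-199a-5p comes from a mesenchymal locus shared with miR-214, while miR-185 and miR-30e are found in many cell types.

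The tested miRNAs whose log2 values over the 24 arrays were most like those of miR-143 were mmu-miR-93 (r = 0.45), mmu-miR-34c* (0.44), mmu-miR-140* (0.43), mmu-let-7a (0.32) and mmu-miR-98 (0.31). For miR-145 they were mmu-let-7a (0.49), mmu-miR-125b-5p (0.48), mmu-miR-30b (0.46), mmu-miR-103 (0.43) and mmu-miR-34c* (0.39). These r values describe 24 arrays that share a scaling factor each, and with both members on the limit on most arrays they are set by few points. Of the named miRNAs, miR-93 and miR-103 also correlated with log2 brightness, with r of 0.67 and 0.70.

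The striated muscle miRNAs were looked at as possible signs of other muscle RNA. miR-1, the most abundant miRNA of heart and skeletal muscle, was detected on 0 of 24 arrays, and so were miR-206, miR-208a, miR-208b and miR-499. miR-133a was detected on 14 arrays and miR-133b on 18, although they share primary transcripts with miR-1 and miR-206. Whether mature miR-1 or miR-206 was present was not tested. A lack of detection does not by itself show that an RNA was absent, and numbers of arrays with detection do not rank miRNAs by level. miR-133b held 6.01% ± 0.903 of the brightness in M WT and 4.01% ± 3.38 in M c-Raf, and its share for F WT was 5.86% ± 2.60 and for F c-Raf 2.83% ± 1.89 (SD, n = 6 each). Over both sexes the log2 difference of c-Raf from WT was -0.88 (SE 0.37, adjusted p = 0.0997 by limma) for miR-133b and -0.57 (SE 0.38, adjusted p = 0.332 by limma) for miR-133a. Of the 7 striated muscle miRNAs, limma tested 2 and called 0, with median log2 differences of -0.69 for males, -0.77 for females and -0.73 for both. At an unadjusted p under 0.05, 1 of the 2 passed by limma over both sexes, miR-133b, and 0 in each sex. The summed share of the 7 ran from 7.66 to 17.8% for M WT, 2.48 to 18.7% for F WT, 1.83 to 24.3% for M c-Raf and 4.61 to 8.12% for F c-Raf.

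Of 12 miRNAs tied to the smooth muscle phenotype, 10 were on the array and 7 were tested. For c-Raf against WT 1 was called, in females and over both sexes, and it was also called for males against females in c-Raf. This was miR-21, which promotes growth of smooth muscle cells and is raised in many tumours. It held 44.6% ± 28.5 of the brightness for F c-Raf and 8.98% ± 5.66 for F WT (SD, n = 6 each), a log2 difference of 2.31 (SE 0.44, adjusted p = 0.00157 by limma). In males it held 11.2% ± 3.57 for M c-Raf and 5.23% ± 2.49 for M WT (SD, n = 6 each), a log2 difference of 1.27 that did not pass (adjusted p = 0.123 by limma). Over both sexes the log2 difference was 1.79 (SE 0.31, adjusted p = 0.000318 by limma). The background was 2.50% of the 120 tested miRNAs called in males, 5.00% in females and 18.3% with the sexes joined. For males against females in c-Raf it was 2.50%. miR-221, which favours the proliferating state of smooth muscle cells, was detected on 9 arrays with a log2 difference over both sexes of 0.27 (SE 0.20, adjusted p = 0.395 by limma). Its neighbour miR-222 was detected on 4 arrays, 3 of them those on which the pair was detected, and was not tested. miR-10b and miR-204 were detected on 0 arrays. The median log2 difference of the 7 tested was 0.47 for males, 0.01 for females and 0.16 for both, beside 0.13, 0.03 and 0.09 over all 120. miR-145* from the same locus was detected on 0 of 24 arrays.

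Of the mesenchymal list, miR-214 was detected on all 24 arrays. It held 22.3% ± 8.51 of the brightness in M WT and 10.5% ± 0.964 in M c-Raf (SD, n = 6 each), and it fell with c-Raf among males (log2 difference -1.03, SE 0.19, adjusted p = 0.00297 by limma), among females (-0.69, SE 0.19, adjusted p = 0.0338) and with the sexes joined (-0.86, SE 0.14, adjusted p = 0.000153). In females the call was lost when any of 9 single arrays was left out, with an adjusted p of up to 0.113. miR-199a-3p, from the same locus and detected on 22 arrays, gave 0.21 over both sexes (SE 0.13, adjusted p = 0.293 by limma). miR-199b*, on 9 arrays, was not called. The median log2 difference of the 3 tested was 0.30 for males, 0.12 for females and 0.21 for both, opposite in sign to miR-214. The summed share of the 4 miRNAs of this list on the array ran from 28.5 to 46.6% for M WT, 22.7 to 36.7% for F WT, 23.5 to 27.9% for M c-Raf and 23.2 to 30.2% for F c-Raf. The part of mesenchymal cell content in the values of the pair was not tested.

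Of 23 miRNAs listed for endothelium, epithelium, ciliated cells, leukocytes and red cells, 14 were detected on more arrays than the pair, 3 on 1 array each and 6 on no array. Endothelial miR-126-3p was detected on 23 arrays and rose in c-Raf over both sexes (log2 difference 0.75, SE 0.21, adjusted p = 0.0217 by limma), while miR-126-5p was detected on 0. Of 7 epithelial miRNAs, 5 were tested and 3 rose over both sexes, namely miR-200a (0.73, SE 0.21, adjusted p = 0.0217 by limma), miR-200b (0.75, SE 0.26, adjusted p = 0.0482) and miR-429 (0.73, SE 0.20, adjusted p = 0.0180). The others tested, miR-200c (0.23, adjusted p = 0.461 by limma) and miR-375 (0.25, adjusted p = 0.583), were not called. Over both sexes 18.3% of all 120 tested miRNAs were called. The call of miR-200b was lost without any of 16 single arrays, with an adjusted p of up to 0.0852. Of the red cell miRNAs, miR-486 fell in c-Raf males (-1.41, SE 0.33, adjusted p = 0.0161 by limma) and over both sexes (-1.10, SE 0.23, adjusted p = 0.00213), the male call being lost without M WT replicate 4 (adjusted p = 0.0509). The other red cell miRNA tested, miR-451, was detected on 15 arrays and had differences of the opposite sign, 0.64 in males, 0.11 in females and 0.38 with the sexes joined (SE 0.28, adjusted p = 0.389 by limma), while miR-144 was detected on 0. Of the 6 ciliated cell miRNAs and the 5 leukocyte miRNAs, limma tested 3 and 3 and called 0. At an unadjusted p under 0.05 limma passed 0 of the 3 ciliated cell miRNAs and 1 leukocyte miRNA, miR-223, in males and over both sexes, named here after its values were seen. Of the 11 calls of c-Raf against WT in the lists, 10 were lost with the brightness taken over all non-control spots and 10 with no scaling between arrays. All 11 were lost with the deposited table or with normexp background correction.

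**Figure D5:**
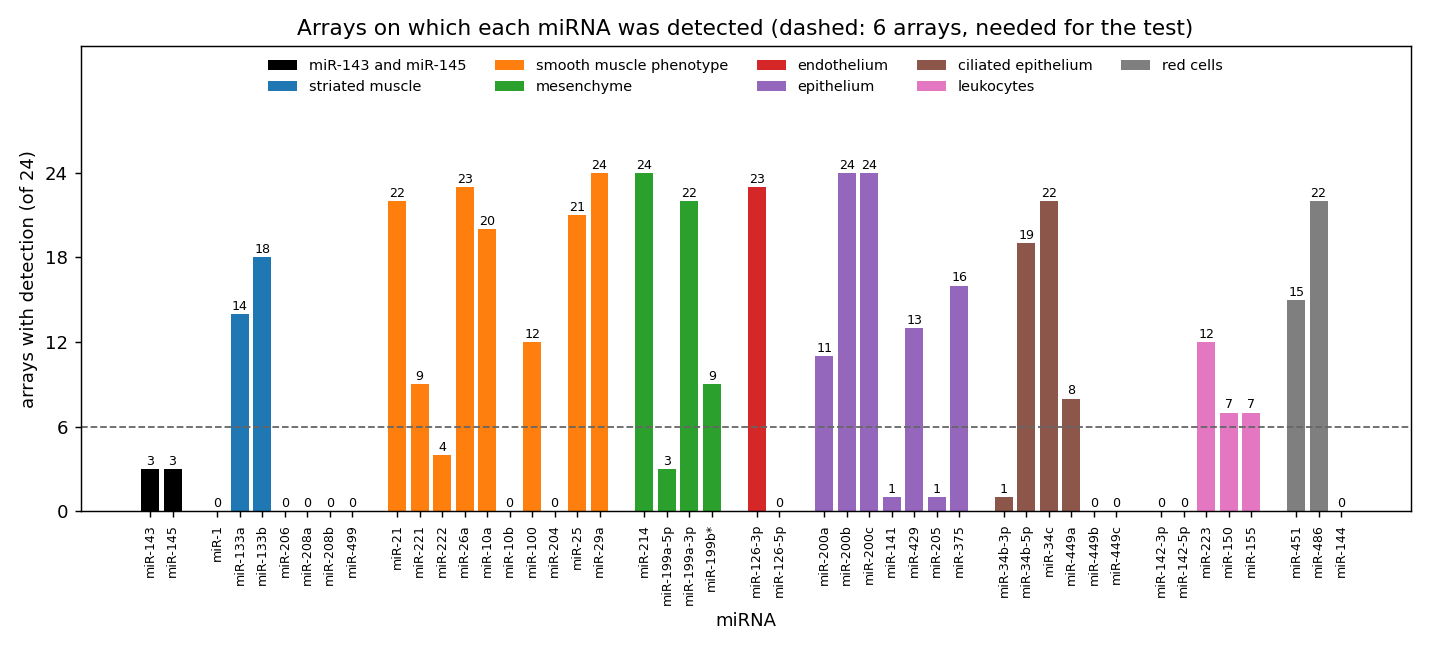
Number of the 24 arrays on which miR-143, miR-145 and the miRNAs of the lists for other cell types were detected, with the 6 arrays needed for the test dashed. The pair stands at 3 arrays each, while miR-214, miR-29a, miR-200b and miR-200c stand at 24 and every list has at least 1 miRNA at 12 or above.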

How the data were processed

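The members and lists were chosen with earlier results of these data known. Per the file headers, the authors used Agilent Feature Extraction 10.7.3.1 (8.1.3 per the submitters' processing notes) on 1-colour (Cy3) arrays, and the deposited intensity of each spot is background-subtracted and not scaled between arrays. Their table of processed values equals the spot median times 1 factor per array and was an alternative. It has values of miR-145 only for M c-Raf, so it gave none for miR-145.

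Here each spot's processed intensity was scaled to the array's brightness, as defined above, values under 0.01 were set to 0.01, and log2 of the median over spots was taken. The filter was detection on at least 6 of 24 arrays, which 120 of 611 mouse miRNAs passed and neither member did. The fit was limma 3.58.1 (R 4.3.3) with 1 mean per group and Benjamini-Hochberg adjustment, tested on simulated data, and with no filter for the members. Single values were tested by exact permutation over arrays or Fisher's exact test (Python 3.11.15, scipy 1.17.1). Shares of brightness and scanner units were added after the data were seen, since the limit of 0.01 hides most values of the pair. Alternatives were other scalings, floors, summaries over spots and filters, the slide or scan as a block, array weights, leaving out each array, and normexp (offset 50), which used the median signal in place of the mean signal. The labels number the replicates without saying more, so p-values measure the spread between these arrays, and the number of arrays limits the precision. Gene names are from RefSeq (GRCm38.p6). Named genes were the members, the 5 tested miRNAs nearest to each by r, and from the lists those called plus miR-21, miR-221, miR-222, miR-1, miR-133a, miR-133b, miR-126-3p, miR-214 and miR-199a-3p. Scan numbers follow the scan day in the headers.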

Additional observations from a re-analysis of the deposited data

Results flagged for a closer look

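Dixon's test at its 95% limit asks whether the highest or lowest of the 6 arrays in a group stands apart from the rest, and chance alone marks about 1 of 20 groups. Of 16 combinations of member, group and scale, 7 passed that limit. As a share of brightness, miR-143 stood apart at -2.04% on M c-Raf replicate 6, the dimmest array, and at -3.11% on M WT replicate 4, the second dimmest of the series. On the log2 scale, where most of a group lies on the limit of -6.64, any array above it can stand out. This applied to miR-143 at -6.04 on M c-Raf replicate 4, -6.23 on M WT replicate 2 and -6.07 on F WT replicate 4, and to miR-145 at -6.57 on M WT replicate 5 and -6.14 on F WT replicate 4. Of these arrays, M c-Raf replicate 4 and F WT replicate 4 were among the 3 on which the pair was detected.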

How the results depend on the processing

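No alternative called miR-143 or miR-145. Over the alternatives of the 6 comparisons, which came to 502 values, the lowest adjusted p was 0.0538 (the sex difference of the c-Raf effect in miR-143 with normexp), and 37 values had the opposite sign to the log2 differences given above. With the brightness taken over all non-control spots, miR-143 gave 1.06 in females, 1.52 over both sexes and 0.15 for males against females in WT. With arrays centred on the median these were 0.13, 0.27 and 0.10, with the deposited values 1.01, 1.5 and 0.16, and with a floor of 0.001 they were 0.43, 0.58 and 0.37. Over both sexes miR-143 gave 0.41 with no scaling, 0.18 with quantile normalization and 0.0032 with the total gene signal. With log2 brightness as a covariate it gave -0.045 in males and 0.020 for males against females in WT, where miR-145 gave 0.011. With means over spots miR-145 gave 0.15 for males against females in WT. With normexp miR-143 gave -0.90 in males, 0.72 in females, -1.62 for the sex difference, 0.53 for males against females in WT and -1.09 in c-Raf, and miR-145 gave -0.90, 0.69, -1.59, 0.54 and -1.05, with -0.10 over both sexes. Under normexp the median of all 611 miRNAs was itself -1.01 in males, 0.72 in females and -0.14 with the sexes joined. With the brightness over all non-control spots the median of the 120 tested miRNAs was 1.01 in males and 0.19 in females. With a floor of 0.1 both members lay on the limit on all arrays. Detection on all 24 arrays left no value for either.

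Leaving out 1 array at a time, the log2 difference of miR-143 ran from -0.069 (without M c-Raf replicate 4) to 0.10 in males, from -0.094 to 0.020 (without F WT replicate 4) in females, from -0.072 to 0.026 over both sexes (also without F WT replicate 4), from -0.095 to 0.069 for males against females in WT (also without F WT replicate 4) and from -0.020 (without M c-Raf replicate 4) to 0.10 in c-Raf. That of miR-145 ran from 0.09 (without M c-Raf replicate 4) to 0.31 in males, from -0.10 to 0 in females, from 0.0022 to 0.13 over both sexes and from -0.089 to 0.013 (without F WT replicate 4) for males against females in WT. The share of brightness of miR-143 ran from -0.132 (without M WT replicate 4) to 0.972 points in males, -0.110 to 0.302 in females, -0.0553 to 0.497 across both sexes, -0.659 to 0.230 for males against females in WT and -0.204 to 0.569 in c-Raf. That of miR-145 ran from 0.983 to 1.94 in males, -0.403 to 0.432 in females, 0.503 to 0.982 across both sexes, -1.12 to -0.245 in WT and 0.302 to 1.23 in c-Raf.

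Of miR-143 minus miR-145, the change over both sexes was 0.010 with normexp, and that between the sexes in WT was -0.0050 with normexp, -0.41 with means over spots and -0.0017 with the total gene signal, while that in females was -0.20 with means over spots and -0.0017 with the total gene signal. Leaving out 1 array, it ran from -0.26 to -0.16 in males, -3.2e-05 to 0.020 in females, -0.13 to -0.073 across both sexes, -0.026 to 0.073 between the sexes in WT and -0.22 to -0.12 in c-Raf. The correlation of the pair was 0.33 (permutation p = 0.121) with the brightness over all non-control spots and -0.37 in scanner units without the 3 arrays with detection. Counting detection as over 10 of 20 spots well above background gave 2 arrays for each member.

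With the slide as a replicate block no member was called. The male difference of miR-145 was then 0.26 (SE 0.13, adjusted p = 0.468 by limma), and within slides its share differed by 1.43 points. Of 36 correlations of same-slide deviations 23 were over 0.1 (-0.42 to 0.72). All of those on slides 2 and 3, which make up scan 4, were between 0.375 and 0.702, while each other slide held some under 0.1. The numbers were taken to pair the arrays only if all 36 were over 0.1, which they were not, so the fit without the block was kept first.

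Over all settings the number of the 120 tested miRNAs called ran from 0 to 7 in males (3 in the main setting), 0 to 11 in females (6) and 0 to 32 across both sexes (22), with 18 where the floor was set after the median, an order added after seeing the data. In the lists, miR-214 in males was 0.15 with no scaling, miR-214 in females 0.30 with normexp and miR-200a -0.025 with normexp. The cause of these changes was not tested beyond what is said above.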
